A study of Mus musculus with 12 samples.

Results

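The genes described here are 8 transcription factors that pattern the forebrain and the cerebral cortex: Emx1, Emx2, Lhx2, Dmrta2, Fezf2, Otx1, Pax6 and Nr2f1. They were chosen by name, not by a threshold on their values, but with earlier results of these data known. The files held 54356 mouse genes, of which 26192 had reads in at least 1 library. The study sequenced RNA from C57BL/6 mouse astrocytes isolated from cortex or from midbrain. Mock cells were kept in growth medium, and the other cultures carried a short hairpin RNA against PTB, the RNA-binding protein encoded by Ptbp1, and spent 2 or 4 weeks in medium for neuronal differentiation. The 6 groups (2 regions, each as mock, shPTB at 2 weeks and shPTB at 4 weeks) hold 2 libraries each, 12 in all. Hairpin and medium changed together, so their effects cannot be told apart, and no group analysed here received the medium without the hairpin. Whether the 2 libraries of a group are separate cultures or animals is not in the labels; the spread that p-values are set against is that between libraries and may be technical.

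Patterning factors divide the embryonic neural tube into territories. In the dorsal telencephalon, which becomes the cortex, Emx1 and Emx2, Lhx2, Dmrta2 and Pax6 act in the progenitors, Nr2f1 (COUP-TFI) shapes the front-to-back arrangement of cortical areas, Fezf2 specifies the deep-layer neurons that project out of the cortex, and Otx1 is used in cortical progenitors and deep-layer neurons. Astrocytes descend from the same progenitors and can go on expressing factors of the region they come from. In the midbrain and hindbrain a different set, including Otx2 in the midbrain, marks position.

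The libraries held 6022098 to 11385761 assigned reads. Levels are given as CPM, reads per 1000000 reads of the library after TMM scaling, a factor per library that sets most genes to no change. Gene positions are those of GENCODE M21 (GRCm38.p6). A gene was called when its adjusted p, over the 14607 genes tested, was below 0.05. The mock libraries stood apart from each other: a difference of more than 2-fold between the 2 libraries was found for 18.4% of tested genes with mock cells from cortex and for 15.8% with those from midbrain, against 6.44% to 10.5% in the shPTB groups. Mitochondrial transcripts took 16.9% to 22.7% of reads in mock libraries and 36.4% to 48.3% in shPTB libraries. Ptbp1 fell by 1.53 and 1.24 on the log2 scale at 2 and 4 weeks in cortex and by 1.22 at 2 weeks in midbrain. At 4 weeks in midbrain its log2 fold change was -0.50 (adjusted p = 0.0744). Between regions Ptbp1 was higher in midbrain at 4 weeks (log2 fold change 0.85 ± 0.21, adjusted p = 0.0276) and was not called in mock or at 2 weeks. The part of this in the members' regional differences at 4 weeks was not tested. The summed level of 15 astrocyte markers ran from 17333 to 34600 CPM in mock and from 24832 to 35337 CPM in shPTB libraries, and that of 12 neuron markers from 162 to 255 CPM in mock and from 59.9 to 138 CPM in shPTB libraries. That sum was lower in each shPTB library than in every mock library, while single neuron markers went both ways: of 10 tested, 5 rose and 3 fell in cortex at 2 weeks (median log2 fold change 0.43), 2 rose and 4 fell there at 4 weeks (-0.01), and in midbrain 1 rose and 3 fell at 2 weeks (-0.05) and 1 rose and 6 fell at 4 weeks (-2.13). Single astrocyte markers went both ways too, and Gfap and Clu had the most reads of the 15 in every library. In cortex 6 rose and 3 fell against mock at 2 weeks (median log2 fold change 0.35), and 5 rose and 5 fell at 4 weeks (-0.14). In midbrain 5 rose and 2 fell at 2 weeks (0.31), and 6 rose and 4 fell at 4 weeks (0.42). Of a list of 16 cortical excitatory neuron genes, 4 (Tbr1, Neurod1, Neurod6 and Neurog2) had 0 reads in all 12 libraries, where 3 reads correspond to 0.163 to 0.576 CPM. The other genes of that list were read: its summed level ran from 85.0 to 152 CPM in mock and from 178 to 252 CPM in shPTB libraries. Of 8 tested, 1 rose and 1 fell against mock in cortex at each time. In midbrain 1 rose and 3 fell at 2 weeks, and 2 rose and 2 fell at 4 weeks.

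Dmrta2 and Fezf2 gave the widest regional difference and a 5.22-fold rise in cortex, so bases upstream of an annotated start site of each are shown. Both are from RefSeq (GRCm38.p6), which held start-site windows for 7 of the 8 genes; Otx1 had none there. Only bases outside every exon of GENCODE M21 are printed, 5′ to 3′ on the gene's strand, with CCAAT boxes on either strand (CCAAT or ATTGG) in capitals. The Dmrta2 stretch is chr4:109977814-109978024 on the plus strand, 211 bases, and the Fezf2 stretch is chr14:12345960-12346115 on the minus strand, 156 bases. The Fezf2 stretch lies inside the annotated gene and borders the 5′ end of the transcript Fezf2-201 (12345959). In cortex at 4 weeks all Fezf2 reads were assigned to Fezf2-203, whose 5′ end (12345844) lies further downstream.
Dmrta2: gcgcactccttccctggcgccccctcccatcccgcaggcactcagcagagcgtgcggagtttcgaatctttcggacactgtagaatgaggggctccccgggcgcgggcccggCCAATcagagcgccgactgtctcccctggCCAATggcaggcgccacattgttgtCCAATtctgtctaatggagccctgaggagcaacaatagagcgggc
Fezf2: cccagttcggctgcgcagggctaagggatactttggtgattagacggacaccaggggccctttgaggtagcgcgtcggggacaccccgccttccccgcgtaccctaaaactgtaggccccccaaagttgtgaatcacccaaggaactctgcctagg
The Dmrta2 stretch held 3 CCAAT boxes, none of which overlap, and the Fezf2 stretch held 0. Of 32851 RefSeq windows cut to the same 211 bases, 30.4% held at least 1 such match and 2.21% held 3 or more; of windows cut to 156 bases, 25.1% held at least 1. These are matches of letters only.

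Dmrta2, Otx1, Fezf2 and Lhx2 were lower in midbrain than in cortex in at least 1 state, Dmrta2 by the most. Of the 7 genes that could be tested, 2 were lower in midbrain in mock cells (Dmrta2 and Lhx2), 1 at 2 weeks (Dmrta2) and 4 at 4 weeks (Dmrta2, Lhx2, Otx1 and Fezf2), and 0 were higher. Over all genes tested 2.19%, 2.94% and 7.99% were called in the same comparisons, with 0.938%, 0.931% and 2.51% lower in midbrain and 1.25%, 2.01% and 5.48% higher. The median log2 fold change of the 7 genes was -0.91 in mock, -0.79 at 2 weeks and -1.22 at 4 weeks, against 0.00, 0.02 and -0.01 over all genes. The 2 libraries of midbrain lay below both libraries of cortex for 5, 6 and 7 of the 7 genes in turn; groups failed to overlap in either direction for 26.2%, 57.2% and 58.9% of all genes. Same-numbered mock libraries shifted together over the genes (r = 0.715 between the regions), which the main fit leaves in the spread. With a term for the library number within each state, Otx1, Pax6 and Nr2f1 were also called lower in midbrain in mock. That fit called 1962 of all genes in mock, against 320 in the main fit. In bulk samples, fewer cells of a type and less RNA per cell cannot be told apart.

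**Figure D1:**
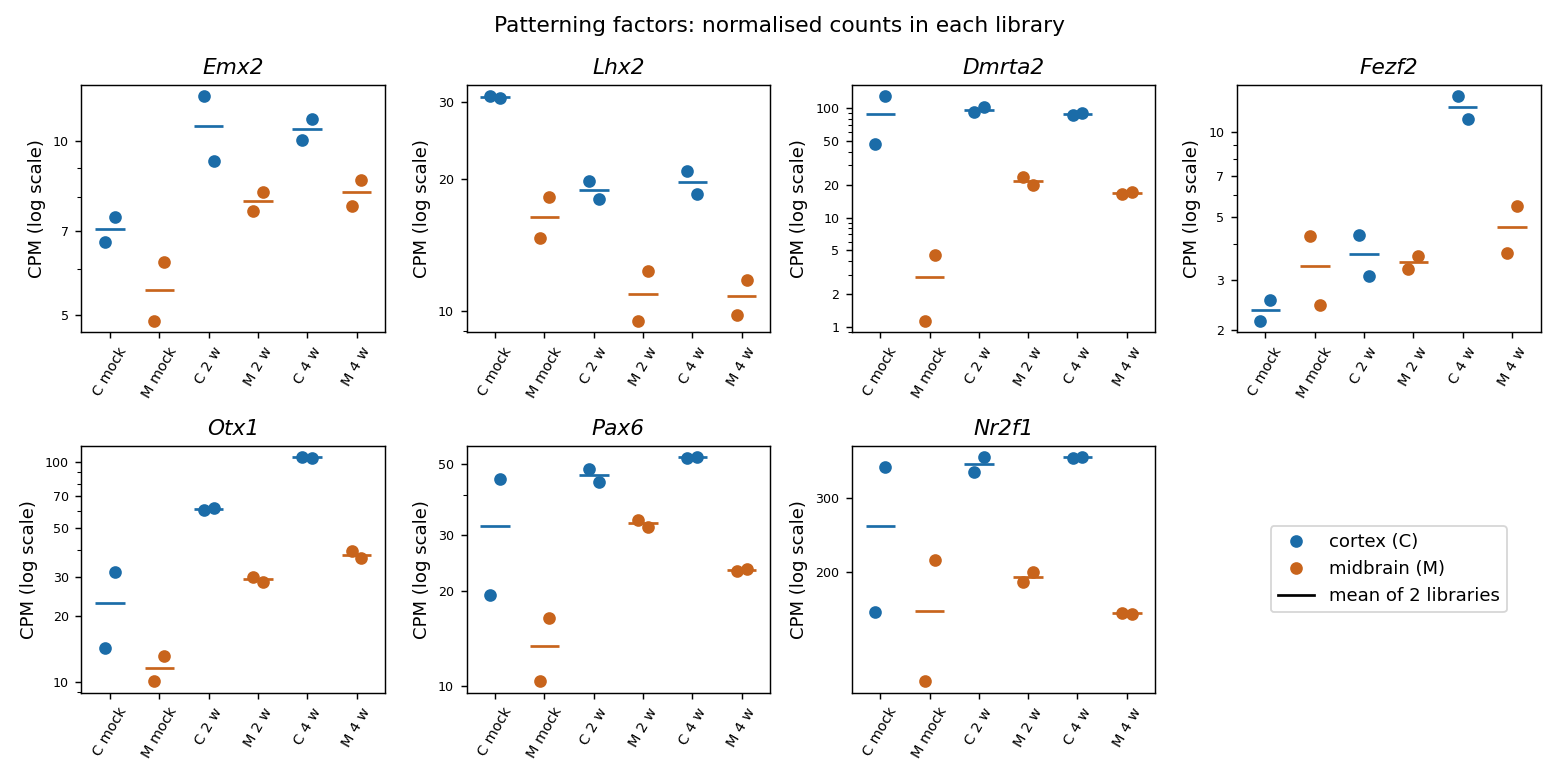
Normalised counts (CPM, log axis, a separate scale in each panel) of the 7 tested genes in each of the 12 libraries; points are libraries, short lines the mean of 2. At 4 weeks both midbrain libraries lie below both cortex libraries in all 7 panels, and the 2 cortex mock libraries are far apart for Dmrta2, Otx1, Pax6 and Nr2f1.

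Emx1 and Emx2 are related homeobox genes of the dorsal telencephalon; Emx1 is the usual marker of cortical progenitors and their descendants. Emx1 (chr6:85187438-85204462, plus strand) had 0 reads in all 6 midbrain libraries. In cortex it had 3 and 0 reads without the hairpin, 0 and 2 at 2 weeks, and 0 and 4 at 4 weeks. All of these reads were assigned to Emx1-202, a transcript that retains an intron, and the coding transcript Emx1-201 had 0 reads in all 12 libraries. Emx1 was therefore at or near the detection floor in cortical astrocytes too, did not pass the filter on low counts, and no regional difference was detectable at this depth.

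Emx2 (chr19:59458372-59465357, plus strand) also works outside the cortex, in the diencephalon and urogenital system. It measured 6.68 and 7.40 CPM in cortex mock and 4.88 and 6.16 CPM in midbrain mock. At 2 weeks it measured 11.98 and 9.25 CPM in cortex and 7.58 and 8.17 CPM in midbrain, and at 4 weeks 10.1 and 10.95 CPM in cortex and 7.74 and 8.57 CPM in midbrain. By count midbrain was the lower group each time without overlap, but by 1.27- to 1.34-fold only, and the adjusted p was 0.783, 0.415 and 0.439. Emx2 was read in all 12 libraries of both regions. In TPM the order at 4 weeks was the reverse, 0.671 and 0.725 in cortex against 0.983 and 1.04 in midbrain. In the fits on counts the sign held under all 13 alternatives, the length offset included (-0.44 to -0.0041). At 4 weeks Salmon assigned all Emx2 reads of both cortex libraries to the longer coding transcript Emx2-201 (2916 bases), and 6.81% and 28.2% of those of midbrain. The rest went to Emx2-202 (1580 bases). TPM also sets each library to the same total, of which mitochondrial transcripts took 47.7% and 48.3% of reads in cortex and 36.4% and 37.2% in midbrain at 4 weeks. The part of each in the TPM order was not tested. The antisense gene Emx2os shares 264 exonic bases with Emx2 and had 1 to 18 reads per library; the deposited values do not state that strand was used, so reads in that stretch cannot be told apart.

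Lhx2 (chr2:38339281-38369733, plus strand) is a LIM-homeobox gene that confers cortical identity on the early telencephalon and, in the developing hippocampus, holds back astrocyte formation. It measured 30.9 and 30.6 CPM in cortex mock and 14.6 and 18.2 CPM in midbrain mock. At 2 weeks it measured 19.8 and 18.0 CPM in cortex and 9.51 and 12.4 CPM in midbrain, and at 4 weeks 20.9 and 18.4 CPM in cortex and 9.81 and 11.8 CPM in midbrain. Cortex was higher than midbrain in every state with no overlap, by 1.88-, 1.73- and 1.82-fold, and the log2 fold change of midbrain over cortex was -0.91 ± 0.20 (SE, adjusted p = 0.0410), -0.79 ± 0.21 (adjusted p = 0.0771) and -0.86 ± 0.21 (adjusted p = 0.0301). All Lhx2 reads were assigned to 1 transcript, Lhx2-201, and the mock replicates, which differed widely for other genes, stayed close to each other, at most 1.24-fold apart. Leaving out any of the 4 libraries at 4 weeks ended that call, and in mock the call was lost without either cortex library or the midbrain library 1 and with the compared groups alone. Scaling to total reads and a transcript length offset each ended both calls without changing the sign.

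Dmrta2 (chr4:109978053-109983687, plus strand), a doublesex-related zinc-finger gene also called Dmrt5, is needed for the cortical hem and for the growth of the caudal and medial cortex. It measured 46.8 and 129 CPM in cortex mock and 1.14 and 4.56 CPM in midbrain mock. At 2 weeks it measured 91.5 and 103 CPM in cortex and 23.6 and 20.0 CPM in midbrain, and at 4 weeks 85.9 and 90.9 CPM in cortex and 16.4 and 17.0 CPM in midbrain. The groups were far apart in mock and closer in shPTB cultures, without overlap in any state. Midbrain was lower by 31.2-fold in mock (log2 fold change -4.96 ± 0.58, adjusted p = 0.000846), 4.45-fold after 2 weeks (-2.15 ± 0.51, adjusted p = 0.0471) and 5.28-fold after 4 weeks (-2.40 ± 0.52, adjusted p = 0.0155). The mock libraries differed by 2.76-fold in cortex and 4.00-fold in midbrain, library 1 being the lower in both; compared within library number, cortex exceeded midbrain by 41.1-fold for number 1 and 28.3-fold for number 2. In mock the call was lost only when the fit held those 4 libraries alone (adjusted p = 0.240), a fit that called 0 of all genes. At 2 and at 4 weeks it was lost on leaving out any of the 4 libraries compared and with a transcript length offset, and at 2 weeks also with RLE size factors.

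Fezf2 (chr14:12342094-12348189, minus strand), the zinc-finger gene of subcerebral projection neurons, was low in most groups. It measured 2.15 and 2.55 CPM in cortex mock and 4.29 and 2.44 CPM in midbrain mock, and 4.31 and 3.08 CPM in cortex and 3.28 and 3.64 CPM in midbrain at 2 weeks. At 4 weeks it measured 13.4 and 11.1 CPM in cortex and 3.73 and 5.49 CPM in midbrain. The regions overlapped in mock and at 2 weeks and separated at 4 weeks, where midbrain was 2.65-fold lower (log2 fold change -1.41 ± 0.33, adjusted p = 0.0246). In mock its sign was the opposite of the other members' (0.53 ± 0.33, adjusted p = 0.787). The call at 4 weeks was lost on leaving out any 1 of the 4 libraries and with scaling to total reads.

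Otx1 (chr11:21994764-22002897, minus strand) is the homeobox relative of Otx2 whose later expression is cortical. It measured 14.4 and 31.7 CPM in cortex mock and 10.1 and 13.2 CPM in midbrain mock. Cultures at 2 weeks had 60.5 and 61.7 CPM in cortex and 30.0 and 28.7 CPM in midbrain, and at 4 weeks 106 and 105 CPM in cortex and 39.4 and 36.7 CPM in midbrain. Cortex lay above midbrain without overlap in each state, narrowly in mock. Midbrain was 2.76-fold lower at 4 weeks (log2 fold change -1.47 ± 0.30, adjusted p = 0.0114); in mock and at 2 weeks the values were -0.98 ± 0.30 (adjusted p = 0.173) and -1.06 ± 0.30 (adjusted p = 0.0936). That call, too, was lost on leaving out any 1 of its 4 libraries, and with a transcript length offset.

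Pax6 (chr2:105668900-105697364, plus strand), a paired-box and homeobox gene, drives neurogenesis in cortical progenitors and stays on in many astrocytes. It measured 19.3 and 44.7 CPM in cortex mock and 10.4 and 16.4 CPM in midbrain mock. With 2 weeks of shPTB it reached 48.3 and 43.8 CPM in cortex and 33.3 and 31.8 CPM in midbrain, and at 4 weeks 52.4 and 52.7 CPM in cortex and 23.1 and 23.4 CPM in midbrain. Cortex lay above midbrain without overlap in all 3 states, yet the main edgeR fit called none of the differences. The log2 fold change was -1.26 ± 0.33, -0.50 ± 0.33 and -1.17 ± 0.34 (adjusted p = 0.101, 0.540 and 0.0593). DESeq2 called Pax6 lower in midbrain in mock (adjusted p = 0.0298) and at 4 weeks (adjusted p = 0.0257).

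Nr2f1 (chr13:78188973-78199757, minus strand), an orphan nuclear receptor, was the most abundant of the 8 by count. It measured 162 and 354 CPM in cortex mock and 111 and 213 CPM in midbrain mock. After 2 weeks the gene stood at 345 and 374 CPM in cortex and 189 and 200 CPM in midbrain, and at 4 weeks 372 and 374 CPM in cortex and 161 and 160 CPM in midbrain. The regions overlapped in mock and not in shPTB cultures, and the main edgeR fit called no difference. The log2 fold change was -0.67 ± 0.35, -0.88 ± 0.35 and -1.22 ± 0.35 (adjusted p = 0.642, 0.245 and 0.0619). With DESeq2 the Nr2f1 difference at 4 weeks was called (adjusted p = 0.0161). Within library number, cortex exceeded midbrain in mock by 1.46- and 1.66-fold.

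**Figure D2:**
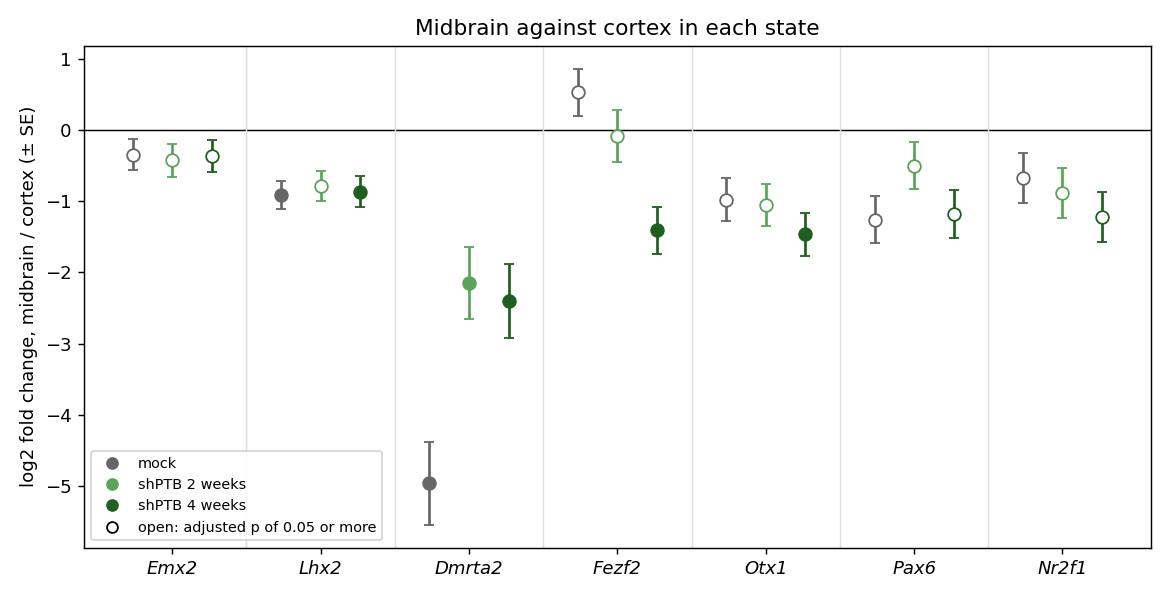
Log2 fold change of midbrain over cortex (± SE of the edgeR fit) for 7 genes in mock cells and in shPTB cultures at 2 and 4 weeks; filled points have an adjusted p below 0.05. Every point except that of Fezf2 in mock lies below 0, and Dmrta2 in mock (-4.96) lies lowest.

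Against mock, Otx1 rose in both regions at both times, Dmrta2 rose in midbrain, Fezf2 rose in cortex at 4 weeks, Pax6 rose in midbrain at 2 weeks and Lhx2 fell. In cortex 1 of the 7 genes rose and 1 fell at 2 weeks, and 2 rose and 1 fell at 4 weeks. In midbrain 3 rose and 0 fell at 2 weeks, and 2 rose and 1 fell at 4 weeks. A large share of the transcriptome was called in these comparisons too: 35% and 39.4% of all genes were called in cortex and 30.6% and 39.2% in midbrain, so the members' counts were near the background. The shares that rose were 17.5% and 18.5% in cortex and 15.9% and 18.7% in midbrain, and those that fell 17.6%, 20.9%, 14.7% and 20.4% in the same order. Directions against mock depend on the scaling: with scaling to total reads in place of TMM the median of all genes moved from -0.11 to -0.85 and from -0.12 to -1.21 in cortex at 2 and 4 weeks, and from -0.07 to -0.74 and from -0.15 to -1.01 in midbrain. The calls described next kept their sign under that scaling.

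Otx1 was 2.66-fold higher than mock at 2 weeks and 4.59-fold higher at 4 weeks in cortex (log2 fold changes of 1.41 ± 0.30 and 2.20 ± 0.30, with adjusted p of 0.00397 and 0.000224). In midbrain it was 2.53- and 3.27-fold higher (1.34 ± 0.30, adjusted p = 0.00672, and 1.71 ± 0.30, adjusted p = 0.00130). Every shPTB library lay above both mock libraries of its region, and each of the 4 calls held under all 14 alternatives run for it, the omission of single libraries included. Its levels at 2 and at 4 weeks in cortex did not overlap, but the difference of 0.78 ± 0.29 was not called (adjusted p = 0.225). From 2 to 4 weeks in midbrain neither the main edgeR fit nor DESeq2 called a member. The main fit called 2.66% of all genes there, and 0 of the 7 had an unadjusted p below 0.05.

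Dmrta2 rose in midbrain, where it started low. It was 7.76-fold higher than mock at 2 weeks (log2 fold change 2.96 ± 0.56, adjusted p = 0.00244) and 5.95-fold higher at 4 weeks (2.57 ± 0.56, adjusted p = 0.00434), and both calls held under each of 14 alternatives. In cortex the values were 0.15 ± 0.48 (adjusted p = 0.834) and 0.01 ± 0.48 (adjusted p = 0.989), with the shPTB libraries lying between the 2 mock libraries. The direction in cortex flipped with scaling to total reads (-0.48, adjusted p = 0.306, and -0.97, adjusted p = 0.0499). At 4 weeks it also flipped with RLE size factors in the edgeR fit (-0.0042). The response in midbrain minus that in cortex was 2.81 ± 0.73 and 2.56 ± 0.73 at the 2 times, which the main edgeR fit did not call (adjusted p = 0.146 and 0.111). DESeq2 called both (adjusted p = 0.00776 and 0.0141).

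Fezf2 in cortex was 5.22-fold higher than mock at 4 weeks (log2 fold change 2.38 ± 0.34, adjusted p = 0.000265), a call that held under each of 14 alternatives. It was also 3.33-fold higher at 4 weeks than at 2 weeks (1.73 ± 0.35, adjusted p = 0.0244), where 2.77% of all genes were called and 0.548% called higher; this call was lost on leaving out any 1 of the 4 libraries and with scaling to total reads. In midbrain its change from mock was 0.03 ± 0.33 at 2 weeks and 0.45 ± 0.33 at 4 weeks (adjusted p = 0.947 and 0.306), values whose sign flipped with scaling to total reads. The difference between the regional responses at 4 weeks was -1.94 ± 0.47 (adjusted p = 0.0588). No member was called by the main edgeR fit in this test of the difference at either time, against 0.685% of all genes at 2 weeks and 2.55% at 4 weeks. DESeq2 called Dmrta2 at both. At an unadjusted p below 0.05 in the main fit, 1 of the 7 passed at 2 weeks (Dmrta2) and 2 at 4 weeks (Dmrta2 and Fezf2).

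Lhx2 was the only one of the 7 that was lower than mock in every shPTB library of both regions. It fell in cortex by 0.70 ± 0.20 on the log2 scale at 2 weeks (adjusted p = 0.0199) and by 0.65 ± 0.20 at 4 weeks (adjusted p = 0.0260). The midbrain cultures at 4 weeks fell by 0.60 ± 0.21 (adjusted p = 0.0390), and those at 2 weeks differed by -0.58 ± 0.20 (adjusted p = 0.0505). The 3 calls were each lost on leaving out single libraries, among them either of the shPTB libraries compared, and with the compared groups alone. A transcript length offset also ended those in cortex at 2 weeks and in midbrain at 4 weeks. The call in midbrain was lost with DESeq2 and without the count filter too.

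Pax6 in midbrain was 2.44-fold higher than mock at 2 weeks (log2 fold change 1.28 ± 0.34, adjusted p = 0.0142); this call was lost without the midbrain mock library 1 or either shPTB library, and with a transcript length offset. Its other changes from mock ran from 0.53 to 0.80 and were not called. Emx2 differed from mock by 0.51 to 0.59 in the 4 comparisons (adjusted p from 0.0610 to 0.102) and Nr2f1 by -0.02 to 0.53 (adjusted p from 0.248 to 0.979). The positive values among these of Emx2 and Nr2f1, and those of Pax6 other than at 2 weeks in midbrain, changed sign with scaling to total reads.

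**Figure D3:**
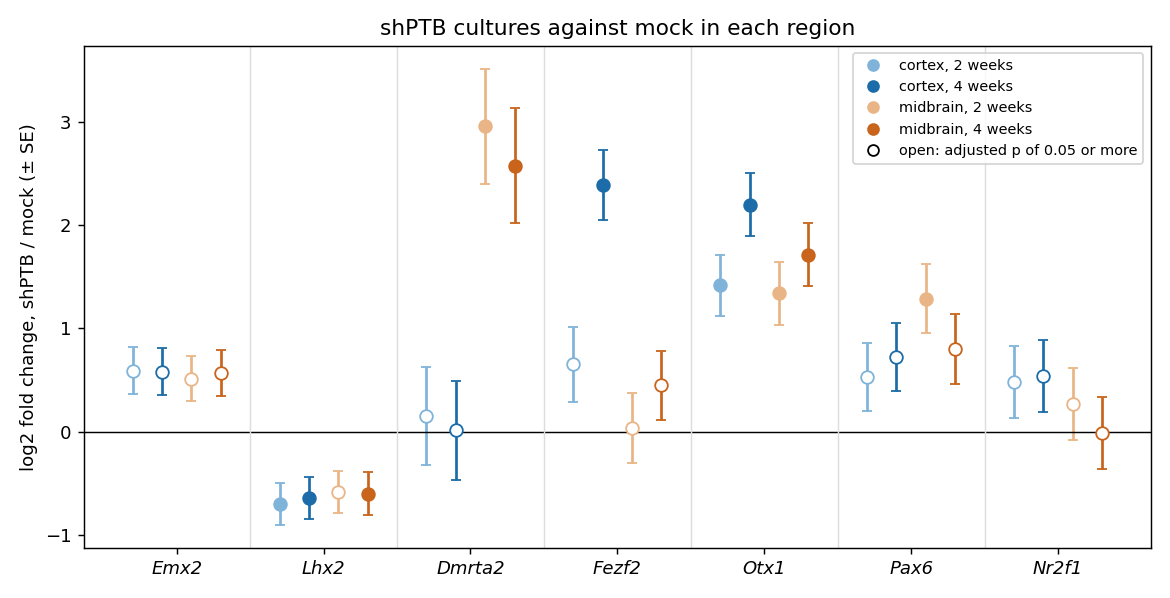
Log2 fold change of shPTB cultures over mock (± SE of the edgeR fit) for 7 genes in each region at 2 and 4 weeks; filled points have an adjusted p below 0.05. Otx1 is filled in all 4 comparisons, Dmrta2 only in midbrain, and Fezf2 only in cortex at 4 weeks.

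Markers of other cell types moved with state and region as well. The summed level of 10 microglia markers was 1155 to 1750 CPM in mock and 69.0 to 131 CPM in shPTB libraries. That of 10 fibroblast and pericyte markers was 861 to 929 CPM in cortex mock and 2138 to 2284 CPM in midbrain mock, and 153 to 233 CPM in cortex and 414 to 504 CPM in midbrain shPTB libraries. Oligodendrocyte and precursor markers were lower in midbrain, as the members were, with 5 of 9 tested called lower and 0 higher at 2 weeks and 4 and 0 at 4 weeks (medians -0.99 and -2.31); in mock 2 were higher and 0 lower. The sum of these 10 markers was 161 to 186 CPM in cortex mock and 254 to 298 CPM in midbrain mock, and 412 to 463 CPM in cortex and 229 to 269 CPM in midbrain shPTB libraries. Ependymal and choroid plexus markers were higher in midbrain for 4 of 9 tested at 2 and at 4 weeks, with 0 lower (medians 1.77 and 1.98), and summed to 168 to 224 CPM in mock, 25.0 to 31.1 CPM in cortex shPTB and 101 to 110 CPM in midbrain shPTB libraries. Against mock, 9 of 10 proliferation genes fell and 0 rose in each of the 4 comparisons (medians -2.41 to -4.51), and 8 or 9 of 13 neural progenitor genes fell and 0 rose (medians -1.11 to -1.65). The part of these cells and states in the members' values was not tested.

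The reads of a gene are spread over its transcripts by Salmon, and for Nr2f1 and Pax6, as for Emx2 at 4 weeks, that assignment differed between groups; these were noticed after the values were seen and are given as descriptions. Nr2f1-201 (chr13:78188973-78199757) and Nr2f1-205 (chr13:78189152-78197038) are both coding and share 1390 exonic bases; Nr2f1-201 begins 2719 bases further 5′ and ends 179 bases further 3′. In mock cells Nr2f1-205 held most of the gene's reads, 89.8% and 69.1% of them with cortex cells and 91.7% and 92.5% with midbrain cells. In the 8 shPTB libraries it held 6.49% to 14.6%, and Nr2f1-201 held 85.4% to 93.5%. The shares did not overlap between mock and shPTB libraries in either region, whereas the main edgeR fit did not call the summed level of the gene against mock. With scaling to total reads that level was called lower than mock in midbrain at 4 weeks. The antisense gene A830082K12Rik shares 123 exonic bases with Nr2f1 and had 56 to 140 reads per library.

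Most Pax6 reads fell on Pax6-226 (chr2:105675109-105675972), a non-coding transcript of 608 bases, of which 526 are shared with the 5′ part of the coding Pax6-202. It took 74.8% to 75.4% of the gene's reads in mock libraries, 81.5% to 82.4% in cortex shPTB libraries, 65.6% and 66.2% in midbrain at 2 weeks, and 86.0% and 83.0% in midbrain at 4 weeks. Without it, the remaining Pax6 transcripts measured 4.76 and 11.2 CPM in cortex mock, 2.60 and 4.04 CPM in midbrain mock, 8.80 and 8.11 CPM in cortex and 11.2 and 10.9 CPM in midbrain at 2 weeks, and 9.71 and 9.22 CPM in cortex and 3.18 and 4.02 CPM in midbrain at 4 weeks. On these reads the order of the regions at 2 weeks was the reverse of that of the whole gene (log2 fold change of midbrain over cortex 0.39 ± 0.37, adjusted p = 0.708, against -0.50), while mock and 4 weeks gave -1.26 ± 0.36 (adjusted p = 0.143) and -1.39 ± 0.40 (adjusted p = 0.0603). The rise in midbrain at 2 weeks was 1.74 ± 0.37 (adjusted p = 0.00472), and at 4 weeks the change from mock was 0.12 ± 0.40 (adjusted p = 0.829).

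**Figure D4:**
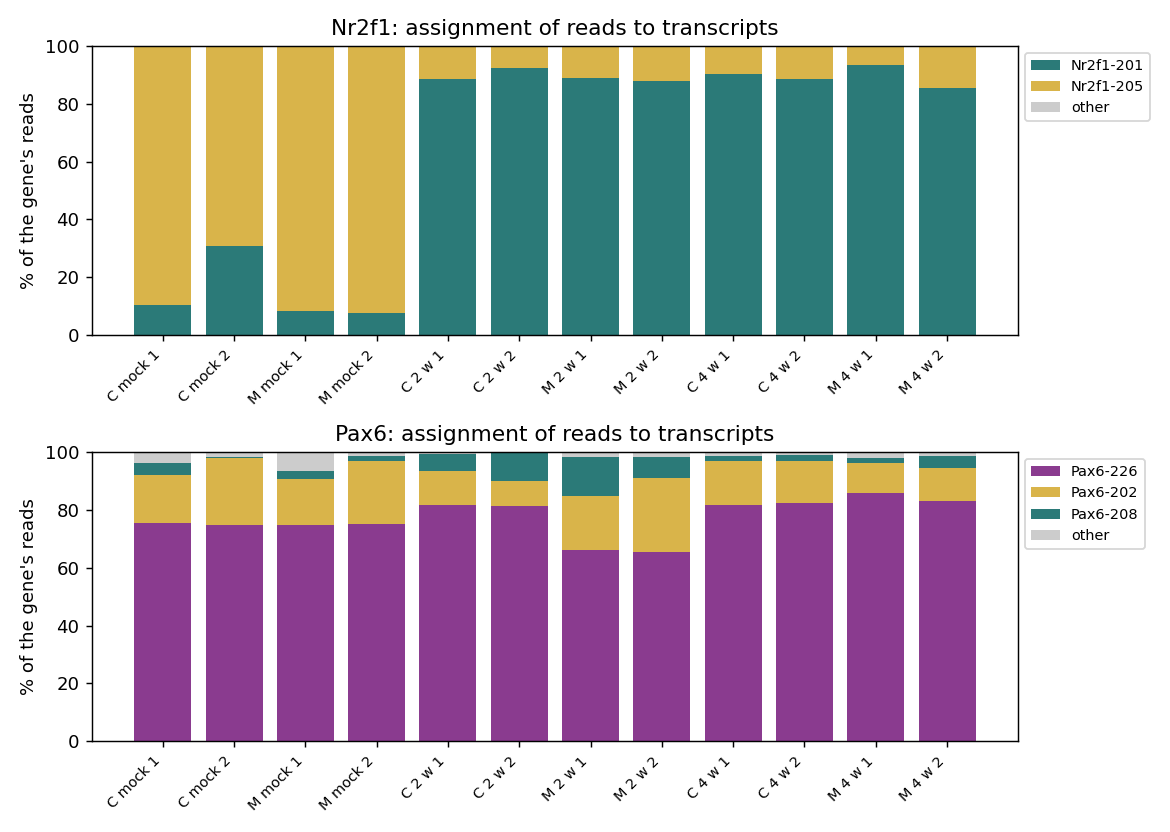
Share of each gene's reads (percent) that Salmon assigned to each transcript, for Nr2f1 (top) and Pax6 (bottom), in the 12 libraries; C is cortex, M midbrain, and the number is the library. Nr2f1-205 holds 69.1% or more in mock libraries and 14.6% or less in shPTB libraries, and Pax6-226 holds 65.6% or more throughout.

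Ordered by mean level over the 6 groups, Otx1, Pax6, Fezf2 and Nr2f1 were highest in cortex at 4 weeks, Dmrta2 and Emx2 in cortex at 2 weeks, and Lhx2 in cortex mock. For Otx1 the order was cortex at 4 weeks (105 CPM), cortex at 2 weeks (61.1), midbrain at 4 weeks (38.0), midbrain at 2 weeks (29.3), cortex mock (23.0) and midbrain mock (11.6), and only midbrain at 2 weeks and cortex mock overlapped as neighbours. For Dmrta2 the 3 cortex groups (97.1, 88.4 and 87.8 CPM) came before midbrain at 2 weeks (21.8), at 4 weeks (16.7) and in mock (2.85), and only cortex at 4 weeks and cortex mock overlapped as neighbours. For Lhx2 cortex mock (30.8 CPM) stood clear of the next, cortex at 4 and 2 weeks (19.7 and 18.9) and midbrain mock (16.4) followed with each overlapping its neighbour, and midbrain at 2 and 4 weeks (10.9 and 10.8) overlapped each other below them. For Fezf2 only the first group, cortex at 4 weeks (12.3 CPM), was free of overlap with its neighbour. For Nr2f1 all 5 pairs of neighbours overlapped.

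Per transcript length, in TPM as deposited (reads per base of transcript, set to the same total in every library) and summed per gene, Nr2f1 (18.5 to 87.4 TPM over the 12 libraries) and Pax6 (17.8 to 69.1 TPM) were the most abundant of the 8. Dmrta2 ranged from 0.529 to 53.4 TPM and Otx1 from 1.69 to 6.21 TPM. Lhx2 (0.513 to 5.41 TPM), Emx2 (0.671 to 4.08 TPM) and Fezf2 (0.815 to 3.68 TPM) lay lowest above Emx1 (0 to 0.223 TPM). The place of Pax6 rests on the short Pax6-226, since TPM divides by length.

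The genes whose log2 CPM ran most like a member's over the 12 libraries are given with Pearson's r as a description; the libraries share groups and depth, and 3 genes were taken per member. Otx1 had the closest partners: Baalc (r = 0.991), Aplp2 (r = 0.981), which encodes an amyloid precursor-like protein, and Syn1 (r = 0.981), which encodes synapsin I. For Pax6 they were Arl5a (r = 0.967), Kcnj10 (r = 0.950), the inward-rectifier potassium channel of astrocytes, and Nacc2 (r = 0.943). For Dmrta2 they were Gm19554 (r = 0.948), Pcdh10 (r = 0.942), a protocadherin, and Slc15a2 (r = 0.932), a peptide transporter. Emx2 ran with Lnx2, Mccc1 and Gm37260 (r = 0.951 to 0.954), and Nr2f1 with Tkt, Gramd1b and Ythdf3 (r = 0.935 to 0.952). Lhx2 ran with Dner, Bmp6 and Asb3 (r = 0.928 to 0.929), and Fezf2 with Vmn2r55, Map9 and Rhpn2 (r = 0.912 to 0.923).

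The other lists of patterning genes did not all follow the members. Of 20 midbrain and hindbrain patterning genes 8 could be tested, and 3, 3 and 5 were higher in midbrain in mock, at 2 weeks and at 4 weeks, with 0 lower and medians of 2.07, 2.74 and 2.94. Otx2, the midbrain and forebrain relative of Otx1, went the opposite way to it: 4.01 and 2.63 CPM in cortex mock against 14.6 and 15.4 CPM in midbrain mock, and 3.30 and 4.23 CPM against 29.4 and 30.4 CPM at 4 weeks (log2 fold change 2.16 and 2.99, adjusted p = 0.000422 and 6.71e-05). Of 20 other forebrain patterning genes 12 could be tested. In mock 1 was higher in midbrain and 0 lower, at 2 weeks 1 and 0, and at 4 weeks 2 and 2, with medians of 0.07, 0.13 and 0.55. Of 16 cortical excitatory neuron genes 8 could be tested, with 1 higher in midbrain and 0 lower in mock and at 2 weeks, and 1 and 1 at 4 weeks.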

How the data were processed

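RNA was copied to cDNA with a biotinylated oligo primer, per the labels' protocols, and quantified with Salmon 0.14.1 after cutadapt 2.3, per the submitters' processing notes, which also name mm10. The authors deposited, per transcript and library, estimated counts and TPM, which divides by transcript length; 56.3% of the positive estimated counts were not whole. Transcripts were matched by identifier without version to GENCODE M21 (140137 of 140658), summed per gene and rounded; the authors' annotation release is not stated in the labels. Genes passed edgeR's filterByExpr (10 reads, 15 in total). edgeR 4.0.16's quasi-likelihood test was fitted to all 12 libraries and 6 groups with TMM scaling (dispersion 0.0550, residual df 6) and Benjamini-Hochberg adjustment over 14607 genes; a fold change is log2. DESeq2 1.42.0, other scalings and filters, a length offset, a replicate block, smaller fits and omission of each library were alternatives, and Pax6 without Pax6-226 was added after seeing the data. The regional comparison in mock was tested on simulated data. All 8 members are named in each comparison. From the other lists at most 4 genes with the largest called regional change and at least 5 CPM could be named, and partners were the 3 genes with the highest r among those with 5 CPM in a group. Some genes of these lists are counted but not reported singly here. The members and lists were chosen with earlier results of these data known. The main fit did not take the numbers 1 and 2 to pair libraries. Values after ± are standard errors of the edgeR fit; the floor of 3 reads covers counting error only.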

Additional observations from a re-analysis of the deposited data

How the results depend on the processing

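Of 19 calls of single members, 19 kept their sign under each alternative run, and 7 held under all of them (Otx1 against mock in both regions at both times, Dmrta2 against mock in midbrain at both times, and Fezf2 against mock in cortex at 4 weeks). Where the others were lost, the cause was not tested. The number of members called, midbrain against cortex, was 2 in mock, 1 at 2 weeks and 4 at 4 weeks. In mock it became 4 without the count filter, 1 with the length offset and 0 with the compared groups alone. At 2 weeks it became 0 with RLE size factors or the length offset, 2 with scaling to total reads or DESeq2, 3 without the count filter and 5 with the compared groups alone. At 4 weeks it became 1 with the length offset, and 6 (Pax6 and Nr2f1 added to the same 4) with DESeq2, no count filter, either replicate block or the compared groups alone. The test of the difference between regional responses called 0 members at either time; DESeq2 called 1 at each, no count filter 1 and 2, and scaling to total reads 1 at 4 weeks. For 4 against 2 weeks the count was 1 in cortex and 0 in midbrain. In cortex it became 0 with scaling to total reads and 2 without the count filter. With the compared groups alone it was 2 in cortex and 4 in midbrain. Those fits called 2608 and 3903 of all genes, against 405 and 388 in the main fit. Against mock in cortex at 2 weeks the compared groups alone gave 1 in place of 2, and 3469 of all genes in place of 5117.

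The replicate numbers were checked for pairing: deviations of same-numbered libraries correlated at 0.715 between the mock groups and at -0.0274 to 0.0306 between all other groups. Same-numbered mock libraries thus shifted together. The main fit did not take the numbers as pairs and counts that shift as spread between libraries. With a replicate block within each state, 5 members were called between regions in mock (Otx1, Pax6 and Nr2f1 added) and 5 at 2 weeks, and 2 and 3 in the tests of the difference. Over all genes that block called 1962 between regions in mock, against 320 in the main fit. In the tests of the difference it called 1634 and 2181 of all genes, against 100 and 372. With a replicate block over all groups the Nr2f1 change in midbrain at 4 weeks turned from -0.02 to 0.045.

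Leaving out libraries, singly or both mock libraries of a number (a group left with 1 library is assumed to vary like the others), gave 1 to 5 members called between regions in mock, 0 at 2 weeks and 0 at 4 weeks under each single omission. The number of members called against mock, from 4 against 2 weeks in cortex and in the tests of the difference changed under omission as well. Values that changed sign were the Fezf2 regional difference in mock (-0.063 to 0.99) and at 2 weeks (-0.31 to 0.17), the Nr2f1 regional difference in mock (-1.23 to 0.0046), and changes against mock of Dmrta2 in cortex (-0.42 to 1.05 and -0.55 to 0.92), Fezf2 in midbrain at 2 weeks (-0.31 to 0.50) and Nr2f1 in midbrain (-0.14 to 0.82 and -0.42 to 0.54).

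With scaling to total reads, uncalled changes that turned negative were, in cortex at 2 and 4 weeks, those of Pax6 (-0.12 and -0.28), Emx2 (-0.14 and -0.50), Dmrta2 (-0.48 and -0.97) and Nr2f1 (-0.17 and -0.47), and Fezf2 at 2 weeks (-0.071). In midbrain they were those of Fezf2 (-0.66 and -0.45), Emx2 (-0.14 and -0.29), Nr2f1 at 2 weeks (-0.36) and Pax6 at 4 weeks (-0.044), and the Fezf2 regional difference at 2 weeks became 0.029. Dmrta2 in cortex at 4 weeks, 0.01, became -0.0042 with RLE, -0.0055 with DESeq2, -0.036 without a filter, -0.012 with a stricter one and -0.020 with the compared groups alone. Without a filter Fezf2 in midbrain at 2 weeks became -0.040, and with the length offset Emx2 became -0.13 in cortex at 4 weeks and -0.097 in midbrain at 2 weeks. Without Pax6-226 the Pax6 regional difference at 2 weeks became 0.39.

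Counts over all genes varied widely too: between regions 320 genes were called in mock (0 to 1962 over the alternatives that kept all libraries, 242 to 1443 with omissions), 430 at 2 weeks (218 to 3209, and 70 to 94) and 1167 at 4 weeks (928 to 3681, and 442 to 516). The lowest count in mock (0) and the highest at 2 and 4 weeks (3209 and 3681) came from fits of the compared groups alone. Genes such as Emx1, with 4 reads at most, could not be compared at this depth, and 2 libraries a group limit all comparisons.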

Other observations

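Some genes of the other lists went against their list's region. Six3, an early forebrain homeobox gene, was higher in midbrain cultures: 158 and 334 CPM in cortex mock against 490 and 620 CPM in midbrain mock, 203 and 242 CPM against 1048 and 1005 CPM at 2 weeks, and 287 and 284 CPM against 952 and 1029 CPM at 4 weeks. The groups did not overlap, and edgeR's log2 fold change was 1.17 ± 0.30 (adjusted p = 0.0836), 2.20 ± 0.31 (adjusted p = 0.00346) and 1.79 ± 0.30 (adjusted p = 0.00391). Wnt8b, a Wnt ligand of the cortical hem and the diencephalon, measured 0.349 and 0.239 CPM in cortex mock and 8.68 and 19.2 CPM in midbrain mock (log2 fold change 5.48 ± 0.52, adjusted p = 0.000207), the reverse of Dmrta2 in the same libraries. In shPTB cultures Wnt8b measured 1.30 to 3.11 CPM in cortex and 3.18 to 4.98 CPM in midbrain and was not called.

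Of the cortical excitatory neuron genes, Crym, which encodes a thyroid hormone-binding protein, was higher in midbrain in mock (3.37 and 5.09 CPM in cortex against 22.1 and 28.2 CPM, adjusted p = 0.000273) and at 4 weeks (3.85 and 4.23 CPM against 19.9 and 19.8 CPM, adjusted p = 0.000572). Rorb, a nuclear receptor of layer 4 neurons that astrocytes also express, was lower in midbrain at 4 weeks (161 and 168 CPM against 95.7 and 93.3 CPM, adjusted p = 0.0120). Irx3, of the midbrain and hindbrain list, measured 0.581 and 0.159 CPM in cortex mock and 4.94 and 4.49 CPM in midbrain mock (adjusted p = 0.00639).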
